A study of Mus musculus with 20 samples.

Results

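The genes described here are 39 interferon-stimulated genes measured in mouse liver: transcription factors of the interferon response, sensors of foreign RNA and DNA, antiviral effectors, the genes of ISG15 conjugation and ADP-ribosylation, and the interferon-inducible GTPases. They were chosen by name, from their place in the interferon response, as rows of the count table whose Ensembl mouse identifier carries one of the 39 listed symbols, and they were kept where a gene reached 2 CPM (counts per 1000000 counts of a library) in at least 3 mice. All 39 of the 39 listed genes passed that filter, out of 12289 genes that passed it among the 54532 in the table. The livers came from male C57BL/6 mice, all made obese over 12 weeks of high-fat feeding before Roux-en-Y gastric bypass (RYGB), which routes food past most of the stomach and the upper small intestine, or Sham surgery. For the next 8 weeks the mice ate either chow or the high-fat diet (HFD). Each of the groups was 5 mice, named by surgery and diet: Sham Chow and RYGB Chow on chow, Sham HFD and RYGB HFD on the high-fat diet. The Sham Chow mice were therefore formerly obese mice returned to chow and not mice that had never been fed HFD, and no mouse was treated with interferon or infected as part of the design. The study reports that Sham HFD mice weighed more than every other group. Comparisons with Sham HFD therefore cannot tell body weight apart from diet or surgery.

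Interferons are cytokines released when a cell detects viral nucleic acid or when lymphocytes are activated. Type I interferons bind the receptor made of IFNAR1 and IFNAR2, and the kinases JAK1 and TYK2 then activate a transcription factor complex, with STAT2 and IRF9 among its parts, that binds interferon-stimulated response elements (ISREs) in the promoters of the responding genes. Type II interferon, IFN-gamma, acts through another receptor and through gamma-activated sites (GAS) in DNA, and the guanylate-binding proteins and immunity-related GTPases are among its best known targets. In liver both hepatocytes and resident macrophages (Kupffer cells) can mount these responses. In whole tissue such as this, fewer cells of a type and less RNA per cell cannot be told apart.

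Each library held 14604854 to 22537498 counts over all genes (median 19056997), and no 2 libraries were identical. The labelled tissue matched its markers: the 8 hepatocyte markers summed to 75230 to 130200 CPM in every mouse. The 6 neutrophil markers summed to 2.66 to 6.59 CPM, with Ly6g alone among them at 0 in all 20 mice. One liver stood apart for the genes of this report. RYGB Chow replicate 5 had the highest value of its group for 30 of the 39 members, against 27.6% of all tested genes, and the highest of all 20 mice for 19 of them. It enters every comparison through the common model, so the count of members called in each is also given without that mouse. Fold changes below are log2 values from edgeR's quasi-likelihood model of all 4 groups, given as second group over first with the standard error (SE), and p-values were adjusted over all 12289 tested genes by the Benjamini-Hochberg method.

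On a scale that allows genes to be compared (mean CPM over the 20 mice per kilobase of exon), the members spanned more than 2 orders of magnitude. Bst2, which encodes tetherin, a membrane protein that holds budding virions on the cell surface, was the highest at 129 CPM per kilobase. It was followed by Iigp1, an immunity-related GTPase, at 73.7 and by Ifi27, which encodes a small mitochondrial protein, at 54.6. Igtp (19.4), Irgm2 (19.2), Dtx3l (12.5), Parp9 (12.2) and Stat2 (10.7) came next, and every other member was below 10 CPM per kilobase. The lowest were Ifi44 (0.526), Oas2 (0.695), Oasl2 (0.703) and Gbp6 (0.814). At that end the precision was limited by counting: Oas1a had between 12 and 122 reads in a library and Ifi44 between 14 and 127, against 4421 to 17173 for Iigp1.

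Many promoters of the members held letters of the ISRE or of GAS. As the members were chosen from their place in the interferon response, such letters are not independent of that choice. RefSeq promoters (build GRCm38.p6, from 250 bases before to 50 bases after the transcription start) were found for 29 of the 39 members, and they were searched on both strands for the core of the ISRE, which is GAAA, any 2 bases and GAAA again, and for the GAS letters TTCNNNGAA, where N is any base. At least 1 ISRE core was present for 17 of the 29 members (58.6%), against 1079 of the 27025 genes with a promoter in the same table (3.99%). GAS letters were present for 10 of the 29 (34.5%), against 9.55% of all genes. A match is a string of letters and was not tested for binding, and overlapping matches within 1 promoter were all counted. The stretches below hold every ISRE core match of the promoter for selected members. Promoters are shown where the matches and 10 bases on either side lie ahead of the transcription start. Oas1a, whose matches lie closer to the start, is therefore left out. The stretches read 5′ to 3′ along the gene's strand, with the matching bases in capitals. A match on the opposite strand appears as TTTC, any 2 bases and TTTC.
Ifit1 (chr19:34640775-34640823, plus strand): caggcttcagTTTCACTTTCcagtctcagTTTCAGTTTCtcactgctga
Ifit3 (chr19:34583363-34583426, plus strand): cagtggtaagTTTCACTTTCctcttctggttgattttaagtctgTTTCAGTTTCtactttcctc
Rsad2 (chr12:26456553-26456582, minus strand): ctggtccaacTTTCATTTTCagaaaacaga
Isg15 (chr4:156200865-156200906, minus strand): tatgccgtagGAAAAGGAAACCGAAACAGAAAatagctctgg
Bst2 (chr8:71537577-71537612, minus strand): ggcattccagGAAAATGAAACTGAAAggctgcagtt
Gbp2 (chr3:142620594-142620623, plus strand): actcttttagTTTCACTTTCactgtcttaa
Gbp3 (chr3:142559989-142560024, plus strand): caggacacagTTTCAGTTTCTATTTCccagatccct
Igtp (chr11:58199512-58199541, plus strand): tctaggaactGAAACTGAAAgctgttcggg
Irgm2 (chr11:58214903-58214932, plus strand): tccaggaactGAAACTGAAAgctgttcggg

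Ifit1 and Ifit3 each held 2 separate matches, while in Isg15, Bst2 and Gbp3 the matches overlapped into a longer run of GAAA or TTTC repeats. Igtp and its neighbour Irgm2 carried the same 10 letters in nearly the same surroundings. Sham HFD differed from Sham Chow at like shares with and without an ISRE core. The counts that follow cover the 29 members with a promoter, and every call was an increase, where 10.9% of all tested genes were higher. Of the 17 members with an ISRE core 9 passed the test, and of the 12 without one 6 did, with median log2 fold changes of 0.62 and 0.63. Of the 10 members with GAS letters, 4 passed the test, and of the 19 without them, 11 did, with median log2 fold changes of 0.36 and 0.74.

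**Figure D1:**
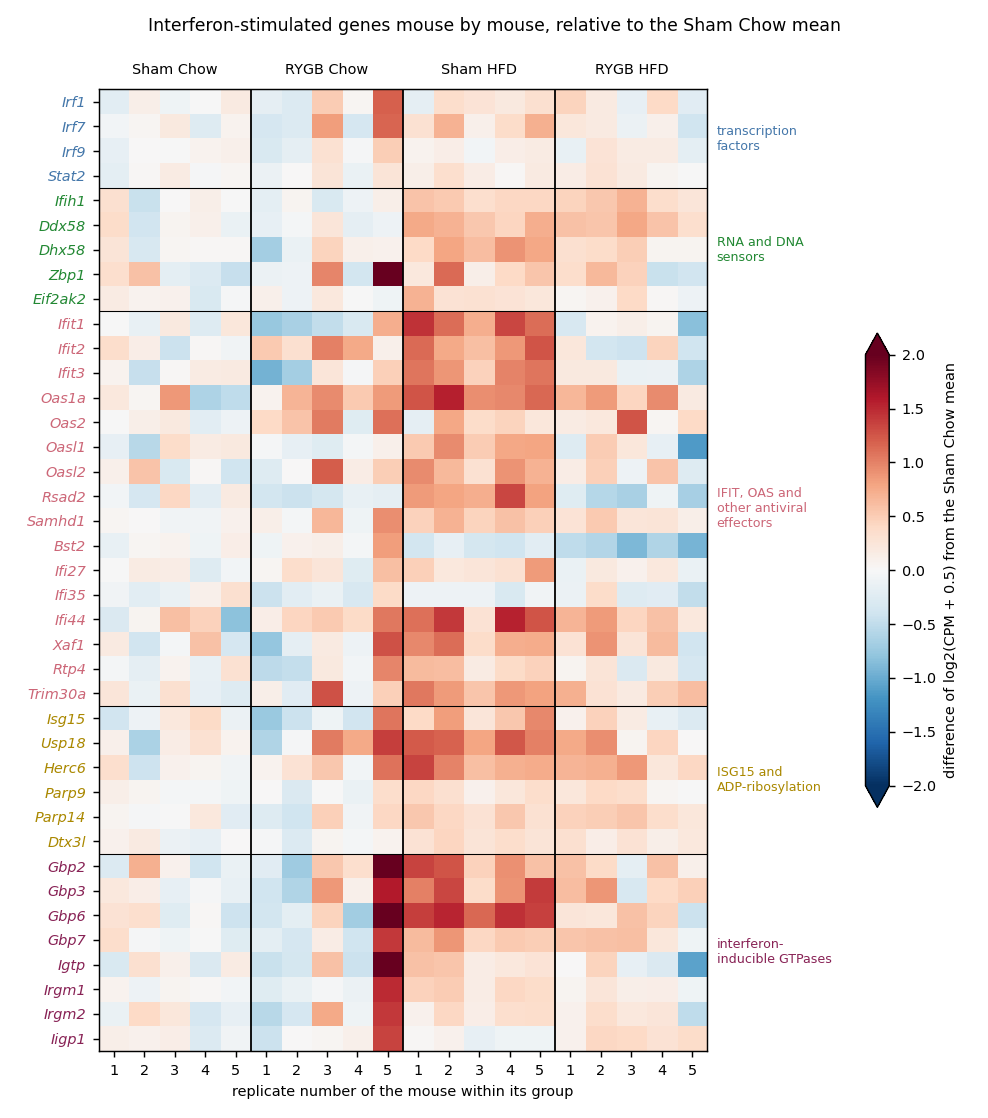
Each row is a member and each column a mouse, grouped by surgery and diet. The colour gives the difference of log2(CPM + 0.5) from the Sham Chow mean on a scale from -2 to 2, with higher values in red. The Sham HFD block is red for most members, while in RYGB Chow only replicates 3 and 5 are, and the 8 GTPases are darkest in RYGB Chow replicate 5.

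HFD after Sham surgery went with higher interferon-stimulated genes. In Sham HFD against Sham Chow, 20 of the 39 members were higher (51.3%) and 0 were lower, where 10.9% of all tested genes were higher and 10.7% lower by the same test. At an unadjusted p under 0.05, 27 members were higher (17.8% of all genes) and 1 lower (17.9% of all genes). The median log2 fold change of the members was 0.55, against -0.0047 for all tested genes, and the sign was positive for 36 of 39 (49.3% of all genes). For 21 members all 5 Sham HFD mice were above all 5 Sham Chow mice (8.43% of all genes), and 1, Bst2, lay the other way (8.11% of all genes). By role, 4 of 5 sensors, 10 of 16 effectors, 4 of 6 genes of ISG15 conjugation and ADP-ribosylation, 2 of 8 GTPases and 0 of 4 transcription factors passed the test. Without RYGB Chow replicate 5, a mouse in neither group, 27 members were higher (11.9% of all genes) and 1, Bst2, was lower (11.6% of all genes).

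RYGB under HFD went with lower levels of a few antiviral effectors. In RYGB HFD against Sham HFD, 6 members were lower (15.4%, where 7.9% of all genes were), namely Rsad2, Ifit1, Ifit2, Ifit3, Oasl1 and Bst2, and 0 were higher (8.54% of all genes). All 6 were effectors. At an unadjusted p under 0.05, 14 members were lower (14.4% of all genes) and 0 higher (16.3% of all genes). The median of the members was -0.39 and 35 of 39 signs were negative, against 48.6% of all genes. For 7 members the groups did not overlap (7.42% of all genes): the 6 called genes except Oasl1, together with Ifi27 and Gbp6, and 0 members lay wholly higher (7.3% of all genes). This comparison shares its Sham HFD mice with the preceding one, so opposite signs in both are not independent. The count also rested on RYGB Chow replicate 5, a mouse in neither group, which enters through the spread estimated for each gene over all groups. Without that mouse 11 members were lower (8.77% of all genes) and 1, Iigp1, was higher (9.13% of all genes). With only Sham HFD and RYGB HFD in the model 15 were lower (9.96% of all genes) and 1 was higher (9.37% of all genes). Cell markers also moved here: 6 of 8 hepatocyte markers were higher and 1 lower, 4 of 6 tested markers of stellate cells and fibroblasts, 2 of 6 of monocyte-derived macrophages and 1 of 4 of B cells were lower, and 0 of 10 of Kupffer cells changed. Ly6d, the plasmacytoid dendritic cell marker that could be tested, was lower by the test (log2 fold change -2.39). The part of these cells in the values of the members was not tested.

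Between the RYGB groups fewer members differed by diet. In RYGB HFD against RYGB Chow, 2 members were higher, the RNA sensors Ifih1 and Ddx58 (5.13%, where 1.99% of all genes were), and 1 was lower, Bst2 (2.56%, where 1.65% of all genes were). At an unadjusted p under 0.05, 4 were higher (9.81% of all genes) and 3 lower (8.98% of all genes). Of the 20 members that were higher with HFD after Sham surgery, Ifih1 and Ddx58 were the ones also higher with HFD after RYGB, and these comparisons share no mice. The groups did not overlap for 3 members upwards (Ifih1, Ddx58 and Dtx3l, with 2.64% of all genes) and for Bst2 downwards (2.4% of all genes). Without RYGB Chow replicate 5 the counts were again 2 higher and 1 lower (1.38% and 1.07% of all genes). The median log2 fold change of the members then moved from -0.03 to 0.16, and 11 members turned from negative to positive.

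On chow, RYGB and Sham livers did not differ by the test for any member. In RYGB Chow against Sham Chow 0 of 39 members passed in either direction with edgeR, and 0 with DESeq2 or limma-voom or without RYGB Chow replicate 5, while 0.0488% of all genes were higher and 0.00814% lower. At an unadjusted p under 0.05, 8 members were higher (5.7% of all genes) and 1 lower (5.09% of all genes). The groups overlapped for all 39 members, while 0.74% of all genes lay wholly higher and 0.594% wholly lower. The median log2 fold change of the members was 0.30 and depended on a single liver: it was -0.02 without RYGB Chow replicate 5, when 11 members turned from positive to negative. With SEs between 0.08 and 0.53 across the members, small changes could not be seen in this comparison.

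**Figure D2:**
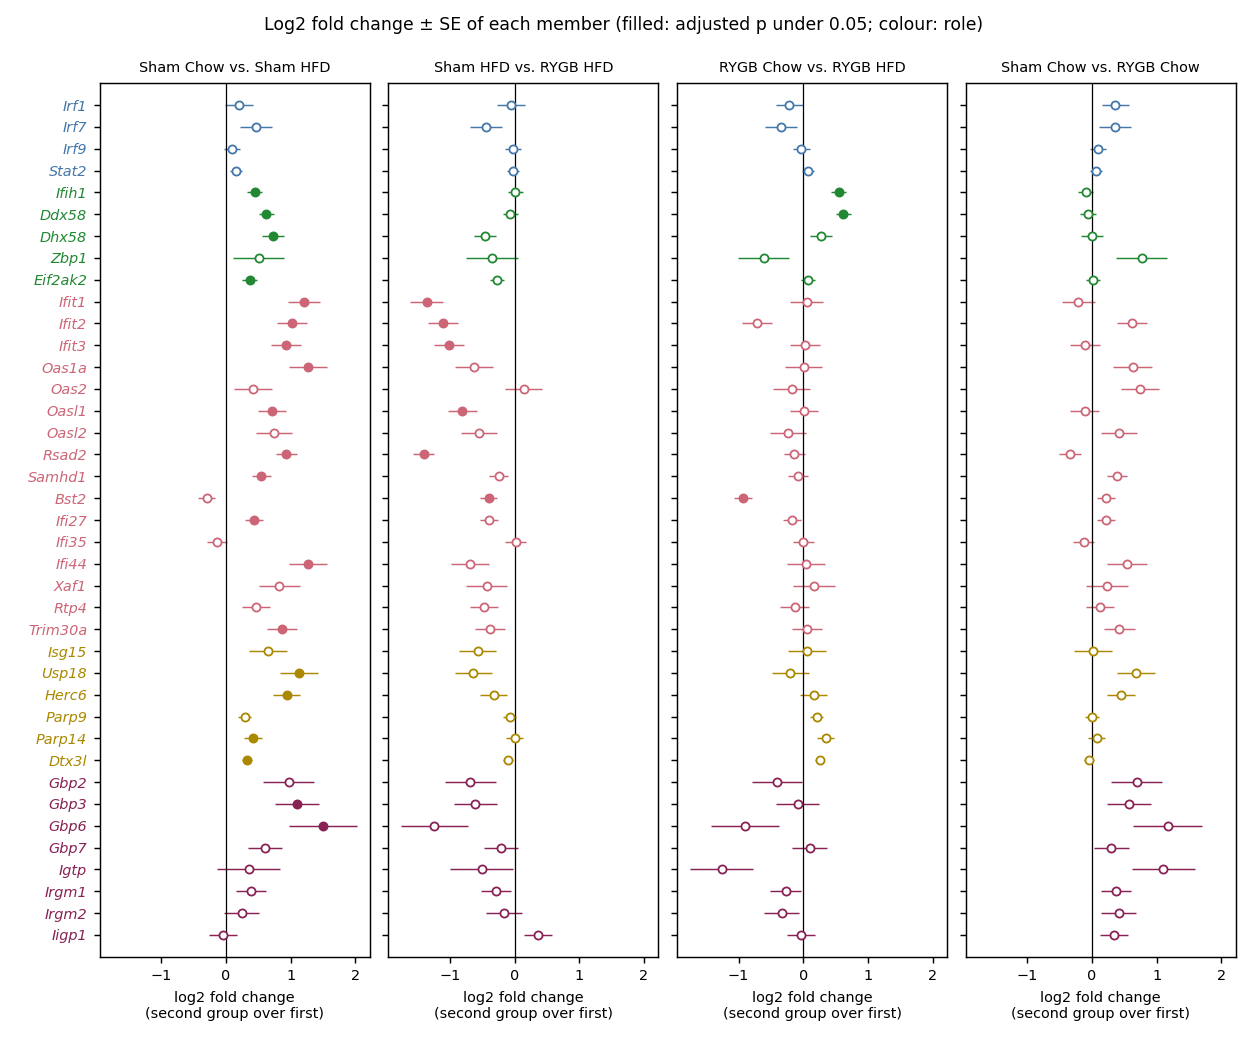
Points give each member's log2 fold change (second group over first) and lines its SE, in the 4 comparisons of 5 against 5 mice. Filled points have an adjusted p under 0.05 over all 12289 tested genes, and colours mark the roles. There are 20 filled points to the right in Sham Chow vs. Sham HFD, 6 to the left in Sham HFD vs. RYGB HFD, and 0 in Sham Chow vs. RYGB Chow.

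Among the transcription factors, none changed by the test in any comparison, and Irf7 had the widest range. Irf7, the interferon-induced factor that amplifies interferon production, measured 21.9, 23.5, 26.1, 19.1 and 24.01 CPM in Sham Chow, 17.98, 18.8, 41.3, 17.9 and 51.7 in RYGB Chow, 28.4, 37.05, 24.6, 29.7 and 37.8 in Sham HFD and 26.9, 26, 21.1, 24.5 and 17.1 in RYGB HFD. RYGB Chow replicates 3 and 5 were the highest 2 of the 20 mice, the other 3 RYGB Chow mice were the lowest 4 together with RYGB HFD replicate 5, and every pair of groups overlapped. The log2 fold change was 0.46 ± 0.24, adjusted p = 0.184 in Sham HFD against Sham Chow and -0.45 ± 0.24, adjusted p = 0.225 in RYGB HFD against Sham HFD. Irf1, a factor induced most strongly by IFN-gamma, measured 24.4, 30.8, 26.5, 28.2 and 32.2 CPM in Sham Chow, 24.9, 23.4, 40.2, 29.1 and 65.1 in RYGB Chow, 24.9, 36.3, 34.3, 32.6 and 35.6 in Sham HFD and 38.7, 32.1, 25.3, 37.3 and 24.1 in RYGB HFD. RYGB Chow replicate 5 was again the highest of all mice, and Sham HFD replicate 1 lay well below its group. Irf9 and Stat2 encode parts of the ISRE-binding complex, and their groups overlapped throughout. Irf9 measured 32.2, 36.5, 36.2, 38.02 and 38.9 CPM in Sham Chow, 29.3, 32.1, 44.9, 35.9 and 51.3 in RYGB Chow, 38.2, 39.8, 34.9, 39.7 and 40.9 in Sham HFD and 32.8, 44.1, 40.6, 40.5 and 31.5 in RYGB HFD. Stat2 measured 51.4, 60.1, 66.5, 58.2 and 60.7 CPM in Sham Chow, 54.8, 59.5, 70.6, 54.2 and 70.7 in RYGB Chow, 63.9, 74.4, 65.7, 60.01 and 67.1 in Sham HFD and 65.8, 72.3, 67.3, 61.3 and 58.8 in RYGB HFD. In Sham HFD against Sham Chow the log2 fold changes were 0.09 ± 0.13 for Irf9, 0.16 ± 0.09 for Stat2 and 0.21 ± 0.22 for Irf1 (adjusted p from 0.212 to 0.631).

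Ddx58 and Ifih1, both cytoplasmic RNA sensors, were higher on HFD after either surgery. Ddx58 encodes RIG-I and Ifih1 encodes MDA5, the receptors of viral double-stranded RNA that signal through MAVS. Ddx58 measured 32.1, 19, 25.9, 26.6 and 22.7 CPM in Sham Chow, 22.2, 24.2, 29.5, 22.03 and 23.1 in RYGB Chow, 42.2, 40.5, 36.4, 33.8 and 41.6 in Sham HFD and 37.7, 36.9, 42.8, 37.04 and 31.7 in RYGB HFD. Within each surgery all HFD mice were above all chow mice, and both HFD groups overlapped. The log2 fold change with HFD was 0.62 ± 0.12, adjusted p = 0.000931 after Sham surgery and 0.62 ± 0.12, adjusted p = 0.00447 after RYGB, and under HFD the difference between RYGB and Sham was -0.06 ± 0.12, adjusted p = 0.748. Ifih1 ranged over 24.7 to 42.5 CPM in Sham Chow, 27.4 to 36.9 in RYGB Chow, 42.9 to 50.5 in Sham HFD and 40.1 to 55.1 in RYGB HFD. With HFD, its log2 fold change was 0.44 ± 0.12, adjusted p = 0.0104 after Sham surgery and 0.55 ± 0.12, adjusted p = 0.0125 after RYGB, with group means under HFD of 46.7 ± 3.05 CPM (SD, n = 5) for Sham and 46.9 ± 5.81 for RYGB. Each of these 4 calls was kept in all 8 alternative settings and with each of the 20 mice left out in turn.

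Dhx58 encodes LGP2, a relative of both receptors that lacks their signalling domain. It measured 10.1, 6.61, 8.67, 8.54 and 8.53 CPM in Sham Chow, 5.05, 7.63, 11.7, 9.07 and 8.92 in RYGB Chow, 11.2, 14.9, 13.2, 16.1 and 14.8 in Sham HFD and 10.6, 10.9, 12.02, 8.73 and 8.81 in RYGB HFD. Every Sham HFD mouse was above every Sham Chow mouse (log2 fold change 0.73 ± 0.17, adjusted p = 0.00443), while RYGB HFD lay between (adjusted p = 0.0655 against Sham HFD). Eif2ak2, the kinase PKR that halts translation on binding double-stranded RNA, was higher in Sham HFD (23.2 to 32.2 CPM) than in Sham Chow (15.8 to 22.2 CPM), with a log2 fold change of 0.36 ± 0.11, adjusted p = 0.0237, a call lost with 3 of the 20 mice left out in turn, Sham HFD replicate 1 (32.2 CPM) among them, and with no filter on low counts. Zbp1, a sensor of Z-form nucleic acid, passed in no comparison and had its highest value, 21.96 CPM, in RYGB Chow replicate 5, where the other 19 mice reached at most 11.9 CPM.

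The IFIT genes and Rsad2 were high in Sham HFD and low again in RYGB HFD. IFIT proteins bind RNA that lacks the host's cap methylation and block its translation. Ifit1 measured 7.66, 6.92, 8.905, 6.41 and 9.19 CPM in Sham Chow, 4.4, 4.78, 5.37, 6.19 and 13.2 in RYGB Chow, 21.8, 17.5, 13.1, 20.4 and 17.4 in Sham HFD and 6.13, 8.201, 8.45, 8.08 and 4.11 in RYGB HFD. The lowest Sham HFD mouse was above every Sham Chow and every RYGB HFD mouse, and RYGB Chow replicate 5 (13.2 CPM) was the single mouse of the other groups to reach the Sham HFD range. The log2 fold change was 1.20 ± 0.25, adjusted p = 0.00187 in Sham HFD against Sham Chow and -1.36 ± 0.25, adjusted p = 0.000817 in RYGB HFD against Sham HFD. Ifit3 measured 9.92, 6.71, 9.55, 10.6 and 10.7 CPM in Sham Chow, 4.62, 5.64, 11.2, 9.21 and 13.3 in RYGB Chow, 20.2, 17.8, 13.1, 19.1 and 20.2 in Sham HFD and 10.8, 10.8, 8.51, 8.61 and 5.96 in RYGB HFD. Like Ifit1 it was higher in Sham HFD than in Sham Chow (0.93 ± 0.23, adjusted p = 0.00664) and, under HFD, lower with RYGB (-1.01 ± 0.23, adjusted p = 0.00425), although reads of Ifit3 may be shared with its near-identical neighbour Ifit3b.

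Ifit2 differed from its relatives in RYGB Chow. It measured 4.24, 3.56, 2.26, 3.27 and 3.02 CPM in Sham Chow, 4.83, 4.14, 7.01, 5.75 and 3.501 in RYGB Chow, 7.63, 5.81, 5.14, 6.26 and 8.39 in Sham HFD and 3.85, 2.39, 2.3, 4.54 and 2.32 in RYGB HFD. RYGB Chow replicate 5, the highest of its group for Ifit1 and Ifit3, was the lowest of its group for Ifit2. The log2 fold change was 1.02 ± 0.23, adjusted p = 0.00376 in Sham HFD against Sham Chow and -1.11 ± 0.23, adjusted p = 0.00242 in RYGB HFD against Sham HFD. RYGB Chow stood 0.63 above Sham Chow and RYGB HFD differed from RYGB Chow by -0.71, neither past the test (adjusted p = 0.319 and 0.0956).

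Rsad2 encodes viperin, an enzyme that makes a chain-terminating nucleotide and is carried on lipid droplets and the endoplasmic reticulum. It measured 8.14, 6.61, 11.4, 7.26 and 9.62 CPM in Sham Chow, 6.41, 6.12, 6.52, 7.61 and 7.396 in RYGB Chow, 15.6, 15.02, 14.3, 22.1 and 15.2 in Sham HFD and 7.11, 5.502, 5.23, 7.96 and 5.17 in RYGB HFD. It was the single member for which all 5 Sham HFD mice were above all 15 others, as were 2.34% of all tested genes, and in RYGB Chow it stayed within 6.12 to 7.61 CPM, replicate 5 included. The log2 fold change was 0.93 ± 0.16, adjusted p = 0.00038 in Sham HFD against Sham Chow and -1.41 ± 0.16, adjusted p = 9.45e-06 in RYGB HFD against Sham HFD, the smallest adjusted p of the set. The calls for Ifit1, Ifit2, Ifit3 and Rsad2 in both comparisons were kept in all 8 alternative settings and with each mouse left out.

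**Figure D3:**
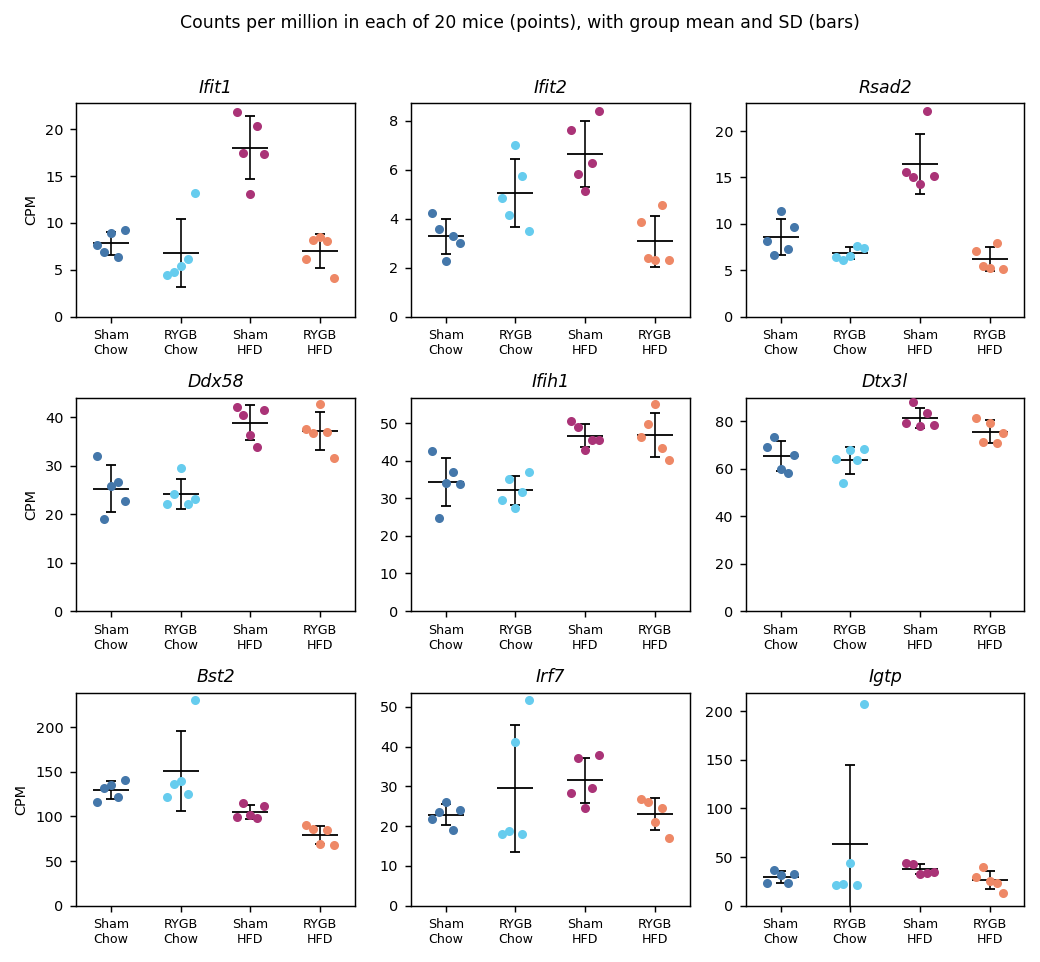
Each point is the CPM of one mouse for 9 members in the 4 groups of 5, and the bars give the group mean and SD, on axes that start at 0. Ifit1, Ifit2 and Rsad2 have their highest group mean in Sham HFD, Ddx58 and Ifih1 are high in both HFD groups, Bst2 is lowest in RYGB HFD, and Irf7 and Igtp are drawn up in RYGB Chow by 1 or 2 mice.

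The enzymes of the oligoadenylate synthetase family activate RNase L on double-stranded RNA. Oas1a, Oas2 and Oasl2 were low in counts, while Oasl1 had 65 to 430 reads in a library. Oas1a measured 1.93, 1.65, 3.32, 0.854 and 0.968 CPM in Sham Chow, 1.68, 2.85, 3.504, 2.49 and 3.27 in RYGB Chow, 4.51, 5.62, 3.495, 3.58 and 4.15 in Sham HFD and 2.82, 3.27, 2.3, 3.54 and 1.86 in RYGB HFD. All Sham HFD mice were above all Sham Chow mice, by a margin of under 0.2 CPM, and the log2 fold change was 1.26 ± 0.30, adjusted p = 0.00471. Its reads may be split with close paralogs such as Oas1g. Oasl1, an enzymatically inactive family member, ranged over 6.66 to 13.1 CPM in Sham Chow, 14.5 to 19.8 in Sham HFD and 4.31 to 14.5 in RYGB HFD, with log2 fold changes of 0.71 ± 0.22, adjusted p = 0.0248 with HFD after Sham surgery and -0.81 ± 0.22, adjusted p = 0.0146 with RYGB under HFD. Its call in the first was lost with 3 of the 20 mice left out in turn, and that in the second was kept with every mouse left out, although 1 RYGB HFD mouse reached the Sham HFD range. Oas2 and Oasl2 passed in no comparison, with log2 fold changes of 0.42 ± 0.30 and 0.74 ± 0.28 in Sham HFD against Sham Chow.

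Bst2 lay opposite to most of the set in Sham HFD against Sham Chow, while under HFD it was lower with RYGB, as most members were. It measured 116, 132, 136, 122 and 141 CPM in Sham Chow, 122, 137, 140, 126 and 231 in RYGB Chow, 99.96, 115, 101, 97.95 and 112 in Sham HFD and 90.2, 85.6, 69.1, 84.9 and 67.7 in RYGB HFD. It was the single member for which all 5 RYGB HFD mice were below all 15 others, as were 0.521% of all tested genes, and RYGB Chow replicate 5 was far above every other mouse. In RYGB HFD against RYGB Chow the log2 fold change was -0.93 ± 0.14, adjusted p = 0.000553, and without RYGB Chow replicates 3 and 5 the call was kept. In RYGB HFD against Sham HFD it was -0.40 ± 0.14, adjusted p = 0.0485, a call at the edge of the threshold that was lost with 15 of the 20 mice left out in turn and with replicate number as a block. In Sham HFD against Sham Chow it was -0.30 ± 0.14, adjusted p = 0.12, with groups that did not overlap, and that decrease passed the test once RYGB Chow replicate 5 was left out.

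Ifi27 measured 69.7, 78.9, 77.6, 58.6 and 67.6 CPM in Sham Chow, 72.1, 89.9, 83.1, 59.5 and 106 in RYGB Chow, 97.3, 81.3, 82.6, 87.04 and 127 in Sham HFD and 64.1, 79.9, 74.1, 81.05 and 63.6 in RYGB HFD. All Sham HFD mice were above all Sham Chow mice and, by under 1 CPM, above all RYGB HFD mice. The log2 fold change was 0.43 ± 0.14, adjusted p = 0.0328 with HFD after Sham surgery, a call lost with 5 of the 20 mice left out, and -0.39 ± 0.14, adjusted p = 0.0621 with RYGB under HFD. Ifi44, a cytoplasmic protein that restrains viral replication, measured 1.45, 1.96, 3.09, 2.78 and 0.847 CPM in Sham Chow, 2.12, 2.69, 2.902, 2.58 and 4.46 in RYGB Chow, 4.62, 5.85, 2.4, 6.38 and 5.202 in Sham HFD and 3.31, 3.79, 2.703, 3.07 and 2.25 in RYGB HFD. For Sham HFD against Sham Chow the log2 fold change was 1.27 ± 0.30, adjusted p = 0.00522, although Sham HFD replicate 3 lay within the Sham Chow range. Trim30a, a ubiquitin ligase of the TRIM family, and Samhd1, which breaks down the nucleotides needed for reverse transcription, were also higher in Sham HFD than in Sham Chow, with log2 fold changes of 0.87 ± 0.24 and 0.55 ± 0.15. Xaf1, Rtp4 and Ifi35 passed in no comparison. Ifi35 had log2 fold changes between -0.14 and 0.02 in the 4 comparisons, and 16.8% of its exon bases also belong to a gene on the other strand.

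ISG15 is a ubiquitin-like protein attached to other proteins during the response. Its own transcript averaged 5.77 CPM over the 20 mice, or 7.6 CPM per kilobase of exon. Isg15 measured 3.66, 4.54, 5.77, 6.55 and 4.47 CPM in Sham Chow, 2.72, 3.49, 4.6, 3.66 and 10.9 in RYGB Chow, 6.59, 9.12, 5.89, 7.34 and 10.01 in Sham HFD and 5.26, 6.96, 5.58, 4.37 and 3.98 in RYGB HFD. The Sham HFD mice overlapped Sham Chow and RYGB HFD, RYGB Chow replicate 5 was the highest of the 20 mice, and the log2 fold changes of 0.65 ± 0.29, adjusted p = 0.113 with HFD after Sham surgery and -0.57 ± 0.29, adjusted p = 0.183 with RYGB under HFD missed the threshold. Usp18, the protease that removes ISG15 and holds back signalling at the type I receptor, measured 6.94, 3.98, 7.197, 8.05 and 6.77 CPM in Sham Chow, 4.07, 6.29, 13.8, 11.2 and 17.5 in RYGB Chow, 15.8, 15.2, 11.4, 15.9 and 13.4 in Sham HFD and 11.2, 12.7, 6.67, 8.79 and 6.495 in RYGB HFD. Every Sham HFD mouse was above every Sham Chow mouse, with a log2 fold change of 1.12 ± 0.29, adjusted p = 0.00956, while RYGB Chow spread over a wider range than any other group. Herc6, the main ISG15 ligase of the mouse, measured 8.19, 4.65, 6.83, 6.62 and 6.05 CPM in Sham Chow, 6.68, 7.898, 9.53, 6.09 and 14.1 in RYGB Chow, 17.1, 13.2, 9.89, 10.8 and 10.9 in Sham HFD and 10.5, 10.8, 12.1, 7.55 and 8.62 in RYGB HFD. Its Sham HFD mice were all above its Sham Chow mice (log2 fold change 0.94 ± 0.21, adjusted p = 0.00385), and RYGB HFD lay between, at -0.32 ± 0.21, adjusted p = 0.316 against Sham HFD.

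Dtx3l and Parp9 encode the partners of a ubiquitin ligase and ADP-ribosyltransferase complex, and Parp14 a related transferase. Dtx3l measured 69.1, 73.5, 59.9, 58.2 and 65.6 CPM in Sham Chow, 64.2, 53.9, 67.7, 63.6 and 68.2 in RYGB Chow, 79.2, 88.1, 77.9, 83.4 and 78.2 in Sham HFD and 81.6, 71.4, 79.2, 70.8 and 75.1 in RYGB HFD. HFD mice were above chow mice without overlap within each surgery, as for Ddx58 and Ifih1, but the steps were small: the log2 fold change was 0.32 ± 0.08, adjusted p = 0.00555 after Sham surgery and 0.25 ± 0.08, adjusted p = 0.0717 after RYGB. Parp14 was higher in Sham HFD than in Sham Chow (0.42 ± 0.14, adjusted p = 0.0333), a call lost with 6 of the 20 mice left out, and its means under HFD were 44.1 ± 3.69 CPM (SD, n = 5) for Sham and 44.1 ± 3.97 for RYGB. Parp9 came close to the threshold in the first of these (0.29 ± 0.10, adjusted p = 0.0512). Parp9 and Dtx3l lie head to head on opposite strands and share 9.4% and 8.0% of their exon bases, and as the strand setting of the counting is not given in the sources used here, reads from that overlap cannot be told apart.

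The GTPases, which take part in the defence against pathogens held in vacuoles, differed most between mice of RYGB Chow. Igtp measured 23.4, 36.5, 31.3, 23.6 and 32.7 CPM in Sham Chow, 21.2, 22.7, 43.6, 21.4 and 208 in RYGB Chow, 44.03, 42.8, 32.3, 33.6 and 35.1 in Sham HFD and 29.1, 39.7, 25.9, 23.7 and 13.5 in RYGB HFD. RYGB Chow replicate 5, at 208 CPM, was far above the next of the 20 mice, at 44.03 CPM, and apart from it the groups overlapped. Gbp2, a guanylate-binding protein, measured 3.37, 7.17, 4.47, 3.06 and 3.75 CPM in Sham Chow, 3.48, 2.36, 6.297, 5.41 and 18.01 in RYGB Chow, 11.5, 10.7, 5.94, 8.35 and 6.56 in Sham HFD and 6.51, 5.61, 3.62, 6.49 and 4.51 in RYGB HFD. Its groups overlapped in every comparison, and the log2 fold change of 0.97 ± 0.39, adjusted p = 0.0823 in Sham HFD against Sham Chow missed the threshold. Gbp3 and Gbp6 were the 2 GTPases that passed there, at 1.10 ± 0.34, adjusted p = 0.025 and 1.502 ± 0.53, adjusted p = 0.0467. The Gbp3 call was lost with 4 of the 20 mice left out in turn. For Gbp6 the 5 Sham HFD mice (6.36 to 8.34 CPM) were above all Sham Chow (1.81 to 3.41) and all RYGB HFD mice (1.79 to 4.14), yet its call was lost with 14 of the 20 mice left out, and 29.0% of its exon bases are shared with another annotated gene on the same strand. Iigp1 passed in no comparison by the model of all 20 mice, with 384 ± 43.98 CPM in Sham Chow and 370 ± 25.5 in Sham HFD (mean ± SD, n = 5 each), and was the one GTPase whose mean was higher in RYGB HFD (475 ± 43.3) than in Sham HFD. With RYGB Chow replicate 5 left out, Gbp2, Gbp7 and Irgm1 joined the members that were higher in Sham HFD than in Sham Chow.

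RYGB Chow was the least uniform of the 4 groups for these genes, and its mice are described one by one. As the mean over the 39 members of log2(CPM + 0.5) relative to the Sham Chow mean, the 5 mice stood at -0.24, -0.14, 0.39, -0.05 and 0.89. The Sham Chow mice spanned -0.07 to 0.08, the Sham HFD mice 0.35 to 0.71 and the RYGB HFD mice -0.15 to 0.36. Replicates 1 and 2 were the highest of their group for 0 members (18.0% and 16.1% of all genes), and replicate 1 was the lowest for 17 (17.8% of all genes). Replicate 5 was the highest of all 20 mice for all 8 GTPases, at 2.51 to 10.2 times the median of the other 4 RYGB Chow mice (median 3.39). For the 5 sensors the corresponding median ratio was 1.07, for the 16 effectors 1.60, for the 6 genes of ISG15 conjugation and ADP-ribosylation 1.71 and for the 4 transcription factors 1.96. Replicate 3 was raised more evenly, with median ratios between 1.29 and 1.61 for the 5 roles. It was the highest of its group for 8 members, among them Trim30a (13.4 CPM) and Oasl2 (8.49 CPM). That share was below the 24.5% of all genes that were highest in it.

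Other immune genes moved with replicate 5. The 8 T cell markers summed to 14.45 CPM in it and to 2.04 to 4.78 CPM in the other 19 mice, with all 8 at their highest in RYGB Chow, and the 9 markers of NK cells and ILC1 summed to 11.7 CPM against 1.49 to 3.41. Of 18 genes of MHC class I antigen presentation, 17 were at their highest in RYGB Chow in this mouse, as were 7 of 8 of MHC class II. Its 10 Kupffer cell markers were in the range of its group, with 0 of them at their highest, and its 7 endothelial markers had the lowest sum of the 20 mice (91.6 CPM). Replicate 3 had the highest sum of the Kupffer cell markers of all mice (682 CPM), with 9 of 10 at their highest in RYGB Chow, and unremarkable T and NK cell markers. The part of these cells in the values of the members was not tested. For the comparison on chow the consequence can be given directly: the log2 fold change in RYGB Chow against Sham Chow was 1.10 for Igtp, 1.17 for Gbp6 and 0.37 for Irgm1, and without replicate 5 it was -0.12, -0.20 and -0.13.

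**Figure D4:**
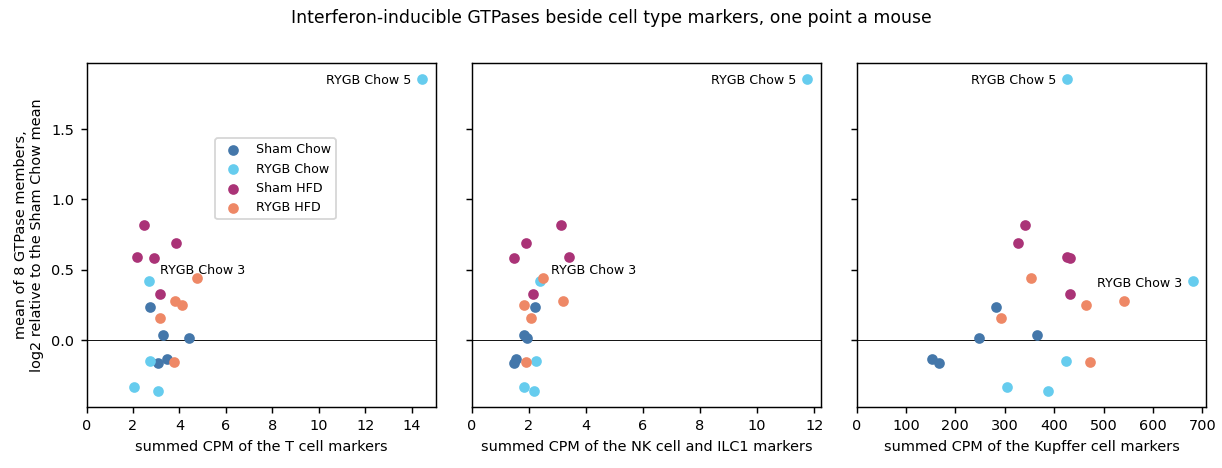
Each point is a mouse, with the mean of the 8 GTPase members (log2 relative to the Sham Chow mean) on the vertical axis and the summed CPM of T cell, NK cell and ILC1 or Kupffer cell markers on the horizontal axes. RYGB Chow replicate 5 lies alone at a GTPase mean of 1.85 with T cell markers at 14.45 CPM, while RYGB Chow replicate 3 has the highest Kupffer cell sum and a GTPase mean of 0.42.

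RYGB HFD also had a mouse at one edge: replicate 5 was the lowest of its group for 29 of the 39 members (23% of all genes), and in Sham HFD replicate 3 was the lowest for 29 (17.5% of all genes). Leaving out either did not remove the calls for Ifit1, Ifit2, Ifit3 or Rsad2.

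Whether the diet difference depended on the surgery was tested with the interaction term, which subtracts the HFD difference after Sham surgery from that after RYGB. The heavier Sham HFD mice enter it, so body weight cannot be told apart from diet or surgery here. The term was negative for 36 of the 39 members (48.0% of all genes), with a median of -0.63 against 0.02 for all genes. It passed for 2, Ifit2 and Rsad2 (5.13%, where 2.58% of all genes were lower), with 0 higher (2.48% of all genes). At an unadjusted p under 0.05, 19 members were lower (10.2% of all genes) and 0 higher (10.5% of all genes). The interaction was -1.73 ± 0.33, adjusted p = 0.00493 for Ifit2 and -1.07 ± 0.23, adjusted p = 0.0102 for Rsad2. For Ifit1, Usp18, Bst2 and Gbp6 it was -1.15, -1.33, -0.63 and -2.41, with adjusted p between 0.0633 and 0.065, and for the sensors Ifih1 and Ddx58 it was 0.10 ± 0.16, adjusted p = 0.768 and within 0.01 of 0. DESeq2 called 7 members lower (4.01% of all genes) and scaling by library size alone 8 (4.86% of all genes). Leaving out RYGB Chow replicate 1, 2 or 4 gave 7, 6 and 5 by edgeR (2.04%, 2.82% and 2.3% of all genes). Without RYGB Chow replicate 5 the same 2 members passed (2.51% of all genes were lower), 14 were lower and 1 higher at an unadjusted p under 0.05, and the median was -0.44. The interaction was then -0.77 for Ifit1, -1.08 for Usp18, -0.43 for Bst2 and -1.04 for Gbp6, with adjusted p between 0.0535 and 0.107. Without RYGB Chow replicates 3 and 5 together, an alternative chosen after seeing the data, the median was -0.19 and 2 members were lower (1.96% of all genes).

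The interferons themselves were at or near the limit of detection. None of 21 listed ligand genes passed the filter. All 14 listed alpha genes, Ifne and both lambda genes had 0 counts in every library, Ifnb1 had 1 count in 1 library, Ifng had at most 5 counts, and Ifnk, the most frequent, had at most 10. A count of 0 in a library of this depth allows up to 3 counts, and a cytokine made elsewhere would leave no transcript in the liver. Of 16 genes of the receptors and of JAK-STAT signalling, 14 were tested. Ifnar2, a chain of the type I receptor, was lower in Sham HFD than in Sham Chow (log2 fold change -0.35, adjusted p = 0.0042), where Ifnar1 measured 44.7 ± 2.95 and 48.8 ± 4.64 CPM (SD, n = 5 each). In that comparison the kinase gene Tyk2 was 0.28 higher and Ptpn6, which encodes the phosphatase SHP-1, 0.45 higher on the log2 scale, and under HFD the feedback inhibitor Socs3 was 0.74 higher with RYGB (adjusted p = 0.042).

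Of 18 genes of pattern recognition and interferon induction, 16 were tested. In Sham HFD against Sham Chow 4 were higher, the endosomal nucleic acid receptors Tlr3 (0.57) and Tlr7 (1.32), their chaperone Unc93b1 (0.33) and the adaptor Traf3 (0.43), and 2 were lower, the adaptor Mavs (-0.22) and Irf3 (-0.38), which turns on interferon genes. Under HFD, Irf3 (0.38) and Irf2 (0.34) were higher with RYGB. Of 18 genes of MHC class I presentation, 1 was lower in Sham HFD than in Sham Chow, Psme1 (-0.40), and 1 was higher with RYGB under HFD, H2-Q7 (0.74). Of 8 genes of MHC class II presentation, the protease gene Ctss was higher in Sham HFD than in Sham Chow (0.80). In an acute phase and NF-kappaB list set beside them for comparison, 8 of 13 tested genes were higher and 2 lower in Sham HFD against Sham Chow, with the smallest p-values for Lcn2 (3.43), Tnfaip3 (1.23) and Saa2 (2.64). With RYGB under HFD, Saa2 (-1.37) and Tnfaip3 (-0.60) were lower and Orm1 (0.52) was higher in that list. Saa2 and Tnfaip3 also had a negative interaction (-2.64 and -1.16), as Ifit2 and Rsad2 did.

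Some lists of non-parenchymal cell markers were higher in Sham HFD, as most members were, and others were not. In Sham HFD against Sham Chow 5 of 10 Kupffer cell markers, all 6 tested markers of monocyte-derived macrophages and all 6 tested markers of stellate cells and fibroblasts were higher, and 5 of 8 hepatocyte markers were lower. None of the 7 endothelial, 5 erythroid or 4 tested B cell markers passed in either direction. The 2 tested markers of conventional dendritic cells and the 1 of neutrophils did not pass. The macrophage sum was 37.2 to 69.6 CPM in Sham HFD, 16.6 to 34.0 in Sham Chow, 24.2 to 37.0 in RYGB Chow and 30.5 to 45.4 in RYGB HFD. Spp1 is in that list and also in the cholangiocyte list, so the sum is not particular to macrophages. The cholangiocyte sum was 29.8 to 58.5 CPM in Sham HFD and 17.7 to 31.8 in Sham Chow. The Kupffer cell sum did not set Sham HFD apart: it was 326 to 433 CPM there, 153 to 365 in Sham Chow, 305 to 682 in RYGB Chow and 292 to 541 in RYGB HFD. Markers of T cells and of NK cells and ILC1 were too low to test and summed to 2.19 to 3.87 and 1.49 to 3.41 CPM in Sham HFD, against 2.74 to 4.43 and 1.495 to 2.22 in Sham Chow. Of the 6 plasmacytoid dendritic cell markers, Ly6d was the one tested. It was 3.73 higher on the log2 scale in Sham HFD than in Sham Chow, while Siglech, which defines these cells better, was at 0.604 ± 0.164 and 0.313 ± 0.231 CPM. How far the share of these cells contributed to the values of the members was not tested.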

How the data were processed

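Liver poly(A) RNA of 20 mice was sequenced with a dUTP-stranded protocol per the labels. The deposited file holds raw counts per Ensembl gene in whole reads, which the authors made without normalization. The submitters' processing notes name Trimmomatic 0.36, FastQC, HISAT2 2.1.0, featureCounts 1.5.0-p3 from Subread and the build mm10. Multi-mapped reads and the strand setting are not given in the sources used here, so paralogs and overlapping genes can share or lose reads.

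Symbols, positions and exon lengths (all annotated exons merged) came from GENCODE M21, of the same build as mm10. Genes with at least 2 CPM in at least 3 mice were kept, as in the study. Counts were fitted with edgeR 4.0.16 (R 4.3.3): TMM scaling, 1 model of the 4 groups, quasi-likelihood tests of 4 contrasts and the surgery-by-diet interaction, and Benjamini-Hochberg adjustment over 12289 genes at a threshold of 0.05. SE is the absolute log2 fold change divided by the square root of F. CPM is the count per 1000000 of the TMM-scaled total. The biological coefficient of variation was 0.181. On simulated counts for Sham HFD vs. RYGB HFD, 200 of 12289 genes were changed. Of those changed by 0.5, 1 and 2 log2 units, edgeR recovered 35.8%, 80.6% and 100%. An absent call at a small fold therefore says little. The real comparison called more genes (1050 higher and 971 lower), so these shares need not hold there.

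Groups came from the sample titles, and the replicates are individual mice of a group. The members, pathway lists and markers were chosen with earlier results of these data known. Values of every mouse are given for the 12 members with the smallest adjusted p in any test, and for Irf7, Irf9, Stat2, Irf1, Isg15, Usp18, Ifi27, Gbp2, Igtp and Ifit1. From the pathway lists, genes with an adjusted p under 0.05 in any comparison are named, at most the 3 with the smallest p in each, beside ligands and receptors. Siglech, Tlr7, Traf3 and Irf3 were named after their values were seen. Alternatives were DESeq2 1.42.0, limma-voom 3.58.1, other scalings and filters, models of 2 groups, replicate number as a block and leaving out each mouse.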

Additional observations from a re-analysis of the deposited data

Results flagged for a closer look

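Within the 4 groups, 8 of 156 tests of a member in a group of 5 found 1 mouse far from the other 4, where chance alone gives about 1 in 20. In RYGB Chow, replicate 5 was far above its group for Bst2 (231 CPM) and for Irgm1 (137 CPM). In Sham HFD, replicate 1 was low for Irf1 (24.9 CPM) and high for Eif2ak2 (32.2 CPM), and replicate 4 was high for Rsad2 (22.1 CPM) and low for Ifi35 (14.7 CPM). In Sham Chow, replicate 2 was low for Ifit3 (6.71 CPM) and for Usp18 (3.97 CPM). The mean of the 16 antiviral effectors was also low in Sham HFD replicate 3, at 0.39 on the log2 scale relative to the Sham Chow mean. Leaving out any of these mice kept the calls of Rsad2, Ifit3 and Usp18 in Sham HFD against Sham Chow, while that of Eif2ak2 was lost without Sham HFD replicate 1.

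By the interaction term over all 20 mice, the HFD difference varied with surgery for Ifit2 (-1.73) and Rsad2 (-1.07) on the log2 scale. Body weight, highest in Sham HFD, cannot be told apart from diet or surgery in that term. For Ifit2 the 5 RYGB HFD mice lay all below and the Sham HFD mice all above their chow groups' means, and for Rsad2 the RYGB groups overlapped.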

How the results depend on the processing

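Counts of members called moved with the model, the scaling and the mice included. With only the groups compared in the model, Sham HFD against Sham Chow gave 29 higher and 1 lower (12.0% and 11.1% of all genes). In that setting RYGB HFD against Sham HFD gave 1 higher and 15 lower (9.37% and 9.96% of all genes). Leaving out RYGB Chow replicates 3 and 5 together, an alternative chosen after seeing the data, gave 29 and 1 (13.0% and 12.1% of all genes) and 1 and 14 (9.35% and 9.62%). It gave 4 higher in RYGB HFD against RYGB Chow (0.727% of all genes). DESeq2 called 2 lower there (2.86% of all genes) and 7 lower for the interaction (4.01%), for which scaling by library size alone called 8 (4.86%). That scaling moved the median of all genes by 0.12 in Sham HFD against Sham Chow, to 26 members and 18.5% of all genes higher and 4.51% lower, and by -0.13 in the interaction. With 1 mouse left out in turn, Sham HFD against Sham Chow gave 15 to 27 higher and 0 to 1 lower, RYGB HFD against Sham HFD 0 to 1 higher and 5 to 11 lower, RYGB HFD against RYGB Chow 2 higher and 1 lower, RYGB Chow against Sham Chow 0 in both directions, and the interaction 0 higher and 2 to 7 lower. In RYGB Chow against Sham Chow, signs turned without RYGB Chow replicate 5 for 11 members, Gbp6, Igtp and Irgm1 among them (ranges with 1 mouse left out of -0.20 to 1.43, -0.12 to 1.32 and -0.13 to 0.49), and without both mice Gbp6 (-0.53), Igtp (-0.44), Irgm1 (-0.17) and Irf7 (-0.33) were also negative, and the Ifih1 interaction was -0.031 with scaling by library size alone. The cause was not tested. Replicate numbers did not pair the mice: 5 of 20 mouse pairs with the same number had a correlation of their deviations over 0.1, from -0.257 to 0.165, and with replicate number as a block 19 and 5 members were called in the first 2 comparisons, losing Gbp6 and Bst2.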

Other observations

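Across all tested genes, 12 were more than 1 log2 unit higher in RYGB Chow replicate 5 than in any of the other 19 mice, Igtp and Gbp6 among them. The widest gap was for Tgtp1, another interferon-inducible GTPase, at 64.1 CPM against at most 4.10 in the others. Ifi47, a related GTPase, measured 69.4 CPM against at most 27.3, and Gbp10, a paralog of Gbp6, 37.5 against 17.3. Cxcl9, a chemokine that draws activated T cells, measured 56.0 CPM against 22.95, and the MHC class II genes H2-Eb1 and H2-Aa measured 71.7 and 79.6 CPM against 31.5 and 37.1. Mup16, a major urinary protein gene with many near-identical copies, was in the same 12 at 737 CPM against 219.

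RYGB Chow replicate 3, the other mouse of its group with raised members, had 8 such genes and none of them was a member. They were Lepr, the leptin receptor (67.4 CPM against at most 11.7 in the other 19 mice), Cyp39a1, Asns, Fgf21, Pck2, Slc7a7, Peg3 and Slc7a5. Asns, an enzyme of asparagine synthesis, measured 30.3 CPM against 10.1, and Fgf21, a hormone of fasting and amino acid shortage, 74.0 CPM against 29.6. These genes were picked after their values were seen, and each set rests on 1 liver.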
